A study of Mus musculus with 2 samples.

Results

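The mitochondrial genome of the mouse is a small circle of its own outside the nucleus, and its transcripts were followed here in RNA from macrophage nuclei. The members were all genes whose symbol begins with mt-, which were 37 of the 55536 mouse genes in the deposited tables: 13 mRNAs, 2 rRNAs and 22 tRNAs. The cells were primary bone-marrow-derived macrophages of strain C57BL/6J. They had received Lipid A, the part of bacterial lipopolysaccharide that TLR4 recognises, at 100 ng/ml for 12 h, had been washed and left for 12 h, and had then been restimulated for 120 min with Lipid A at 100 ng/ml. Total RNA of their nuclear fraction, which one label calls nucleus and another nucleoplasmic, was depleted of ribosomal RNA and sequenced. There was 1 group of 2 libraries, replicate 1 from 1 µg of RNA and replicate 2 from 500 ng, and effects of RNA input and of replicate cannot be told apart. Both carried the same donor label, and the spread between them may be technical. No condition was compared, and the labels name no genetic modification.

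Mitochondrial DNA is read from both of its strands as long transcripts that cover almost the whole circle. The transcript from the heavy-strand promoters carries both rRNAs, most tRNAs and all mRNAs but mt-Nd6, and the transcript from the light-strand promoter carries mt-Nd6 and a handful of tRNAs. The tRNAs lie between the other genes, and enzymes cut them out at both ends, which frees the mRNAs and rRNAs. The mRNAs encode core subunits of respiratory complexes I, III and IV and of ATP synthase (complex V), and the rRNAs are parts of the ribosome that translates them inside the organelle. Nuclear chromosomes also hold old and recent insertions of mitochondrial DNA, some of which are near-identical to the present genome. In the annotation 28 of the 37 genes belonged to the heavy-strand transcript and 9 to the light-strand transcript, namely mt-Nd6 and 8 tRNAs.

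Replicate 1 had 28450309 expected counts on genes and replicate 2 had 16940220. The second tool, whose tables have column names as kallisto writes them, gave 36269716 and 30920780 estimated counts. All 8 macrophage markers examined were at a TPM (abundance corrected for transcript length and scaled to a fixed total) of 1 or more in both libraries, and no marker of T cells, B cells, neutrophils, erythroid cells or fibroblasts reached that level in both. Those markers summed to between 0 and 1.77 TPM per cell type and library, against 2565 and 2696 TPM for the macrophage markers.

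Several of the mRNAs are repeated almost whole in nuclear genes. On chromosome 1 (mm10), between positions 24611535 and 24616197 on the minus strand, 7 annotated genes repeated mRNAs of the mitochondrial genome, in mirrored order. Gm28661 held 681 of the 684 bases of mt-Co2, Gm10925 held 678 of the 681 bases of mt-Atp6, and Gm28437 held 783 of the 784 bases of mt-Co3, each without a mismatch. Gm10222 held 294 of the 297 bases of mt-Nd4l and Gm28439 bases 1 to 876 of mt-Nd4, also without a mismatch. Gm28438 held 345 of the 348 bases of mt-Nd3 with 1 substitution, T3C, where positions are counted from 1 at the first base of the mRNA and the mitochondrial base is written first. Gm29216 held bases 1054 to 1545 of mt-Co1, with 6 substitutions near its start: T1056A, C1057T, A1059G, A1060G, C1062A and A1066T. The other 6 mRNAs (mt-Nd1, mt-Nd2, mt-Atp8, mt-Nd5, mt-Nd6 and mt-Cytb) had no such copy among annotated pseudogenes that averaged at least 10 counts.

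The ends of 3 genes and their copies are shown because they hold the only bases by which a read within these genes could be placed. The sequences are from the GENCODE M21 transcripts (mm10), 5′ to 3′, and capitals mark the bases of the mitochondrial gene that its copy lacks.
mt-Co2, chrM:7664-7696, plus strand: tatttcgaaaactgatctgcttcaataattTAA
Gm28661, chr1:24614885-24614914, minus strand: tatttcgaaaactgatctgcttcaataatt
mt-Atp6, chrM:8575-8607, plus strand: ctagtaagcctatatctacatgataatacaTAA
Gm10925, chr1:24613974-24614003, minus strand: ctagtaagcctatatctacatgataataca
mt-Co3, chrM:9360-9390, plus strand: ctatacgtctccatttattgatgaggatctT
Gm28437, chr1:24613189-24613218, minus strand: ctatacgtctccatttattgatgaggatct
The copies of mt-Co2 and mt-Atp6 lacked the stop codon TAA. The annotated mt-Co3, like mt-Nd4 and mt-Cytb, ended in a lone T after its last whole codon, a base that polyadenylation is known to complete to a stop codon.

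Between gene and copy, the deposited gene tables placed most counts on the copy in both libraries for 4 mRNAs, mt-Co2, mt-Atp6, mt-Co3 and mt-Nd3, and in replicate 2 also for mt-Nd4l. mt-Co2, a subunit of cytochrome c oxidase, had 1973 counts in replicate 1 and 2648 in replicate 2, while Gm28661 had 121405 and 160857. The gene therefore held 1.60% and 1.62% of the counts of both. mt-Atp6, the proton channel subunit of ATP synthase, held 8.94% and 10.2%, and mt-Co3, another core subunit of cytochrome c oxidase, held 14.3% and 5.98%. mt-Nd3 and mt-Nd4l, small membrane subunits of complex I, held 38.8% and 32.3%, and 54.3% and 22.1%. For mt-Nd4 the libraries differed in kind: its copy had 0.7 counts in replicate 1 and 63403 in replicate 2, where mt-Nd4 held 73.0% of the counts. mt-Co1, the catalytic subunit of cytochrome c oxidase, kept 99.7% and 99.9%.

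The second tool divided the same reads differently. It gave mt-Atp6 94.2% and 99.7% of the counts on gene and copy, mt-Co3 69.5% and 58.6%, and mt-Nd4l all of them, since Gm10222 stood at 0 in both libraries. mt-Nd3 held nearly all counts in replicate 1 and 97.5% in replicate 2. mt-Co2 stayed in the minority with 16.9% and 10.9%. mt-Nd4 held 80.8% and 66.7%, and mt-Co1 95.7% and 97.9%. In total the copies took 19.3% and 22.2% of the counts on mitochondrial genes and copies in the gene tables, and 12.3% and 12.6% with the second tool. From these tables it cannot be told how many of these reads came from chromosome 1, and levels below are given both for the gene alone and for gene and copy together.

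**Figure D1:**
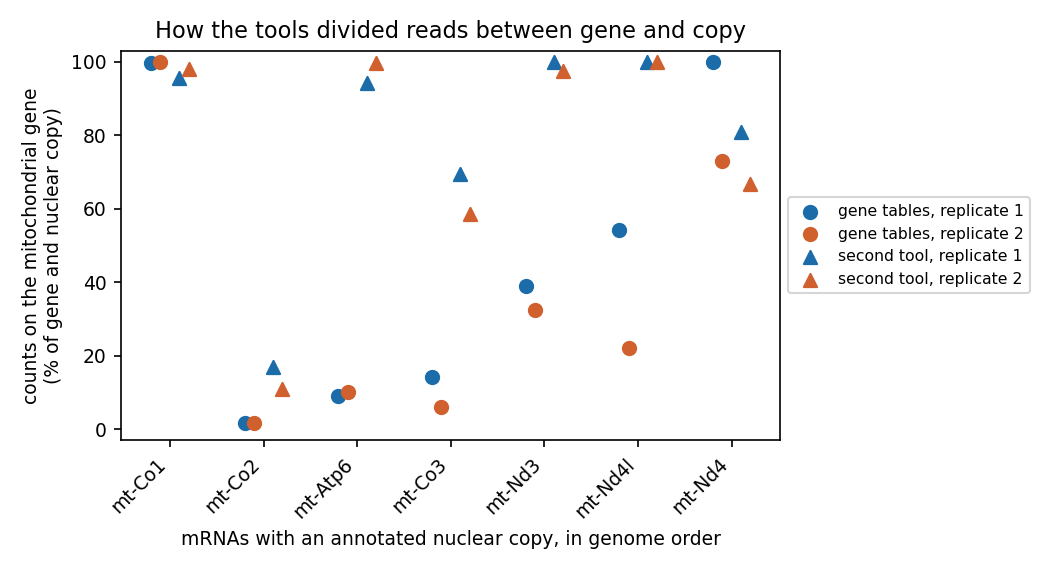
Percent of the counts on gene and nuclear copy that each deposited quantification placed on the mitochondrial gene, for the 7 mRNAs with a copy in genome order (circles, gene tables; triangles, second tool; blue, replicate 1; orange, replicate 2). In the gene tables mt-Co2 is at 1.60% and 1.62%, whereas mt-Co1 is above 99% in both libraries.

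The tools lay far apart in CPM for mRNAs with a copy only. In CPM (counts scaled to the library total), 6 of 6 mRNAs without a copy lay within 2-fold of each other between the tools, with log2 ratios of second tool over gene table from -0.30 to -0.20 in replicate 1 and from -0.39 to -0.05 in replicate 2. Among the 7 with a copy, 4 were more than 2-fold apart in replicate 1 and 5 in replicate 2, and their log2 ratios ran from -0.56 to 3.11 and from -0.46 to 3.003. Of the 14698 genes whose counts averaged at least 10, 10.1% and 12.5% were that far apart. Once the copies' counts were added to their genes in both tools, all 13 mRNAs lay within 2-fold, from -0.30 to -0.02 and from -0.39 to 0.16. The order of the 13 mRNAs per base of length, compared between the tools, had a Spearman coefficient of 0.49 and 0.74 for the genes alone and of 0.98 and 0.96 with the copies added, a description over genes that share their reads. In TPM, which also depends on each tool's effective lengths, all 6 mRNAs without a copy were more than 2-fold apart in replicate 1 and 1 was in replicate 2. Of the 14698 genes, 1660 and 1382 were that far apart in TPM. The median log2 ratio of second tool over gene table in TPM over all of these genes was -0.43 and -0.17. The rRNAs had no copy in use, and mt-Rnr2 was 0.47 and 0.60 higher on the log2 scale with the second tool, mt-Rnr1 0.02 and 0.07.

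Mitochondrial genes held 4.15% of all gene counts in replicate 1, with a 95% Wilson interval of 4.14 to 4.15, and 10.3% in replicate 2, with one of 10.29 to 10.32, or 7.23% ± 4.35 (SD, n = 2). Such intervals span the counting error alone, as reads carried no marks for PCR duplicates. The libraries thus stood far outside each other's counting error. With the copies added the gene tables put the shares at 5.14% and 13.2%. The second tool put them at 3.79% and 9.32% without copies, and without short structural RNAs in the total the gene tables put them at 4.61% and 10.9%. mt-Co1 alone held 57.8% and 48.2% of mitochondrial counts, or 46.8% and 37.5% with the copies added. The only light-strand mRNA, mt-Nd6, a membrane subunit of complex I, held 3.24% and 2.78%, or 2.61% and 2.16% with the copies added.

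The 13 mRNAs took 98.7% and 99.4% of mitochondrial counts and the 2 rRNAs 1.34% and 0.596%. With the copies added the rRNAs took 1.08% and 0.464%. mt-Rnr1 (the 12S rRNA gene, chrM:70-1024) had 7064 and 5441 counts, or 199 and 352 TPM. mt-Rnr2 (the 16S rRNA gene, chrM:1094-2675) had 8755 and 4965 counts, or 132 and 173 TPM. On the TPM scale the mean rRNA level was below the mean mRNA level by a log2 difference of -3.84 in replicate 1 and -5.34 in replicate 2 (-4.59 ± 1.06, SD, n = 2). Both libraries had been depleted of ribosomal RNA, and the part of that step in the rRNA levels was not tested.

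Along the genome the mRNA levels did not follow position: over the 12 heavy-strand mRNAs with the copies added, the Spearman coefficient of level and start was -0.11 and -0.18, given as a description. With the copies added, mt-Co1 (chrM:5328-6872) was the highest in both libraries, at 443 and 545 expected counts per base of its length, which was 6.02 and 3.93 times the median mRNA of the same library. mt-Co2 (chrM:7013-7696) was next, at 180 and 239 counts per base, followed by mt-Atp6 (chrM:7927-8607) at 119 and 229. mt-Co3 (chrM:8607-9390) stood at 117 and 149.5 counts per base, 4th and 5th in the order. The lowest was mt-Nd3 (chrM:9459-9806), directly downstream of mt-Co3 and mt-Tg, at 14.6 and 33.5 counts per base, 0.198 and 0.241 times the median mRNA. The 3 genes of cytochrome c oxidase and mt-Atp6 were thus above the median mRNA in both libraries. So were 2 genes of complex I, mt-Nd4 at 1.003 and 1.23 times the median and mt-Nd5 at 1.03 and 1.003. In replicate 2 mt-Nd4 ranked above mt-Co3.

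The complex I genes lay mostly at or below the median. mt-Nd1 (chrM:2751-3707), the first mRNA of the heavy-strand transcript, stood at 62.8 and 139 counts per base, and mt-Nd2 (chrM:3914-4951) at 30.3 and 76.7. mt-Nd4 (chrM:10167-11544) had 73.8 and 171 counts per base with its copy, and mt-Nd5 (chrM:11742-13565) had 75.6 and 139. These 4 held 9th, 10th, 6th and 5th place of 13 in replicate 1, and 7th, 11th, 4th and 6th in replicate 2. mt-Nd6 (chrM:13552-14070, minus strand) had 73.6 and 93.4 counts per base and fell from the 7th place in replicate 1 to the 10th in replicate 2. mt-Cytb (chrM:14145-15288), the mitochondrially encoded subunit of complex III, was 8th in both at 68.2 and 131 counts per base. The order of the 13 mRNAs in the 2 libraries had a Spearman coefficient of 0.92. In replicate 1 the middle of the order, from mt-Nd5 to mt-Nd1, spanned only 1.03 to 0.85 times the median mRNA. Places within it thus rest on small differences. Whether reads were counted by strand was not given in the sources used here, and mt-Nd6 lies opposite the heavy-strand transcript, so reads of the 2 strands cannot be told apart for it.

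**Figure D2:**
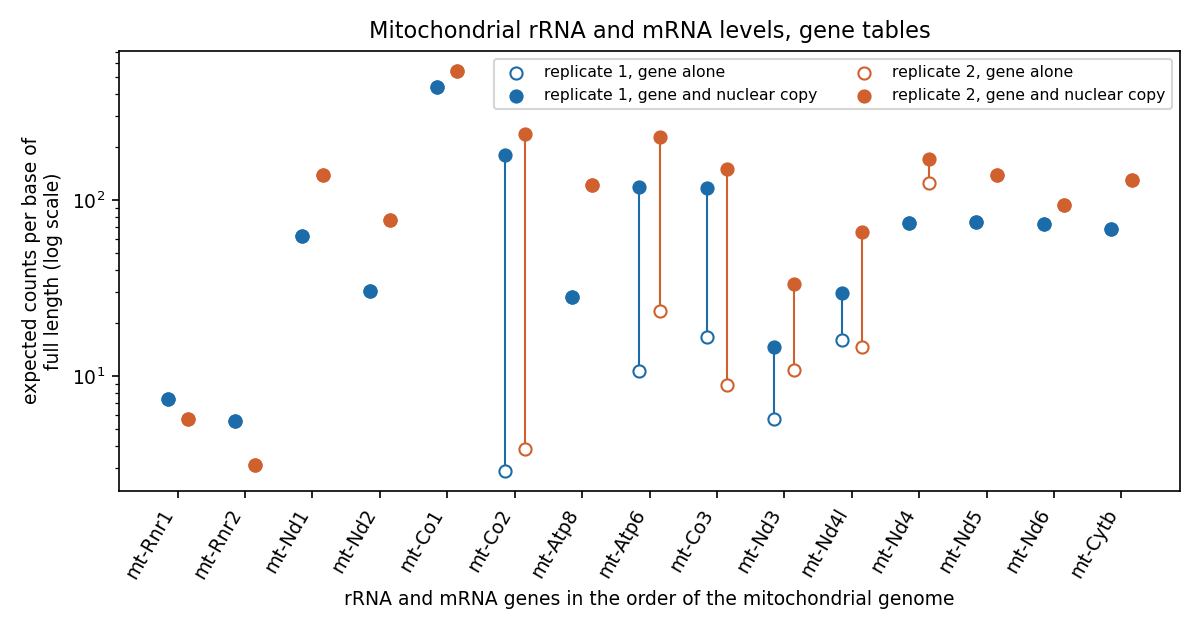
Expected counts per base of full length (log scale) for the 2 rRNAs and 13 mRNAs in genome order, by library (blue, replicate 1; orange, replicate 2), for the gene alone (open) and with its nuclear copy (filled). mt-Co1 is the highest at 443 and 545, the rRNAs are the lowest with copies added, and mt-Co2 rises from 2.89 and 3.87 to 180 and 239 when Gm28661 is added; libraries are not scaled to each other.

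The deposited TPM gave another order of the mRNAs. mt-Co2 was the lowest mRNA with 89.3 and 270 TPM, and Gm28661 had 5532 and 16535. mt-Atp6 had 331 and 1635 TPM and mt-Co3 had 484 and 589.6, far below mt-Nd6 with 2734 and 7662, although both were above mt-Nd6 per base with the copies added. mt-Atp8, the smallest mRNA, had 7248 and 58916 TPM and was the highest of all 13 in replicate 2, above mt-Co1 with 10564 and 30184. With 5750 and 24786 counts on 204 bases, mt-Atp8 was at 28.2 and 122 counts per base, 12th and 9th of 13. The gene tables gave mt-Atp8 an effective length (the number of positions where a fragment can start) of only 16.1 and 20.1 bases, by which its TPM was divided. The log2 ratio of the highest to the lowest mRNA was 6.89 and 7.77 in TPM and 4.92 and 4.02 per base with the copies added.

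mt-Atp8 also shares bases with mt-Atp6, since both are read in different frames from 1 mRNA. The end of mt-Atp8 is shown with the 43 bases in capitals that also open mt-Atp6.
mt-Atp8, chrM:7907-7969, plus strand: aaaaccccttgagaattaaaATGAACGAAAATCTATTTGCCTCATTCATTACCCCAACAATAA
mt-Nd4l and mt-Nd4, likewise known to be read from 1 mRNA, share the 7 bases in capitals.
mt-Nd4l, chrM:10147-10173, plus strand: caaaatctcaacctactacaATGCTAA
Per base with the copies added, mt-Atp6 was above mt-Atp8 in both libraries (119 against 28.2, and 229 against 122) and mt-Nd4 above mt-Nd4l (73.8 against 29.6, and 171 against 65.8). Both short genes were the lower member of their pair, and full length does not allow for fragments that run past a gene's end. mt-Nd5 and mt-Nd6 share 14 bases on opposite strands, chrM:13552-13565.

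All mRNAs were higher in replicate 2 once the copies were added. Libraries were compared by counts scaled with TMM, and each gene with an exact two-sided binomial test with Benjamini-Hochberg adjustment over all 14698 genes, which covers counting error and compares these libraries, not conditions. By this test, 12 of the 13 mRNAs as deposited were higher in replicate 2, where 29.7% of all genes were, and 1 was lower, where 30.2% were. With the copies added all 13 were higher. The lower one was mt-Co3, at 13076 and 7010 counts, with a log2 ratio of replicate 2 over replicate 1 of -0.32 (adjusted p = 4.09e-49, exact binomial test). Together with Gm28437 its log2 ratio was 0.94.

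By size, 9 of 13 mRNAs were more than 2-fold higher in replicate 2, both as deposited, where 10.6% of all genes were, and with the copies added, where 10.5% were. None was more than 2-fold lower, against 6.89% of all genes. The median log2 ratio of the 13 mRNAs was 1.46 as deposited and 1.53 with the copies added, beside 0.01 over all genes tested. The second tool gave 1.23 and 1.28. Across all genes the common biological coefficient of variation of the 2 libraries was 0.337, which amounts to an SD of 0.69 for a log2 ratio.

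The rRNAs stood apart from the mRNAs in this. mt-Rnr1 was higher in replicate 2 by a log2 ratio of 0.21 (adjusted p = 1.23e-14, exact binomial test), a call that the second tool did not make (0.02, adjusted p = 0.368). mt-Rnr2 was lower with -0.23 (adjusted p = 2.69e-19, exact binomial test). Neither was beyond 2-fold, and both log2 ratios were below that of each of the 13 mRNAs with the copies added, of which the lowest was 0.88.

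Among the mRNAs with the copies added, the 3 genes of complex IV and mt-Nd6 had the smallest ratios. mt-Co1 was at 0.88, mt-Co3 at 0.94 and mt-Co2 at 0.99. The 7 genes of complex I ran from 0.93 for mt-Nd6 to 1.93 for mt-Nd2, with a median of 1.74; mt-Nd1 was at 1.73, mt-Nd4l at 1.74, mt-Nd3 at 1.78, mt-Nd4 at 1.79 and mt-Nd5 at 1.46. mt-Cytb of complex III was at 1.52. The ATP synthase genes were at 1.53 for mt-Atp6 and 2.69 for mt-Atp8, the largest of the 13 in the gene tables. The effective length of mt-Atp8 was 16.1 bases in replicate 1 and 20.1 in replicate 2, and the part of fragment length in its ratio was not tested. With the second tool and copies added the complex IV genes were again lowest, from 0.58 to 0.68, and mt-Atp8 again highest at 2.52. mRNAs of higher GC content tended to have smaller ratios (Spearman -0.51, Pearson -0.53 over 13 mRNAs of 31.9% to 41.1% GC that share their libraries), a description whose part in the order was not tested.

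**Figure D3:**
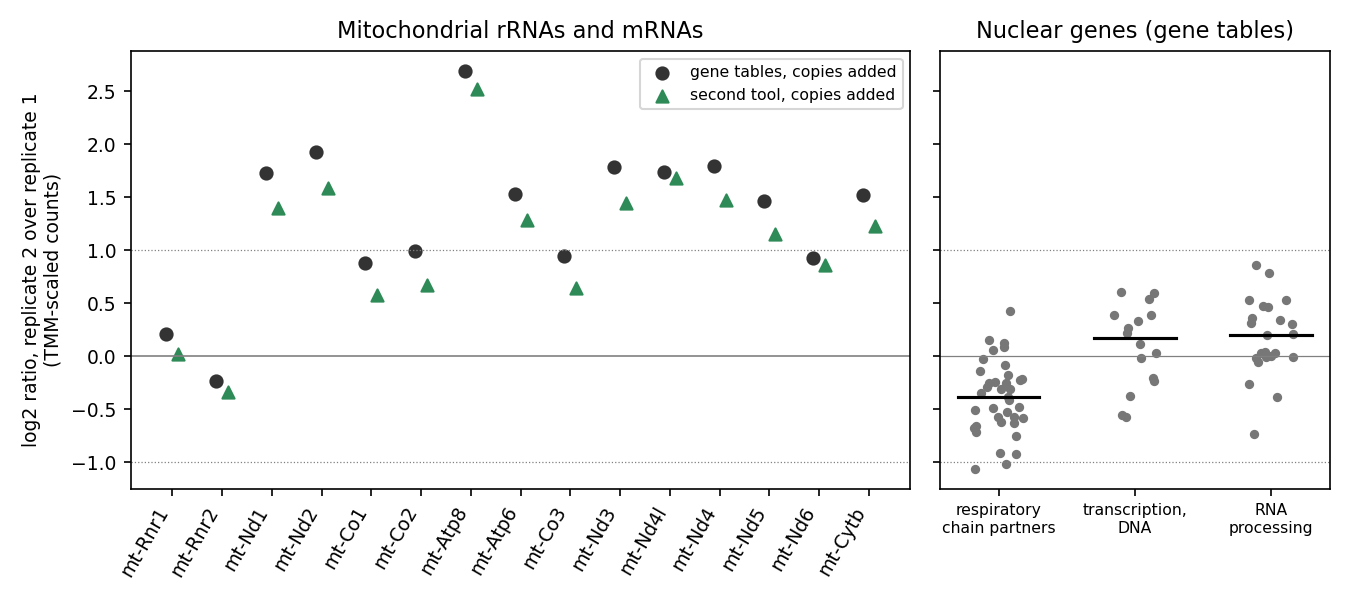
Log2 ratio of replicate 2 over replicate 1 (TMM-scaled counts) for each mitochondrial rRNA and mRNA in genome order with the copies added (black circles, gene tables; green triangles, second tool), and for the nuclear genes of 3 lists (grey points; bars, list medians). All 13 mRNAs lie above 0, from 0.88 to 2.69 in the gene tables, and the rRNAs lie near 0; dotted lines mark 2-fold.

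The tRNAs could be measured with the second tool only. In the gene tables all 22 had an effective length of 0 and no counts, which is no measurement of their level. The second tool gave them effective lengths above 0, such as 19.6 and 17.7 bases for mt-Tf. With the second tool the tRNAs held 0.10% and 0.119% of mitochondrial counts, 1374 and 3433 counts in all. The 8 light-strand tRNAs held 97.3% of these in replicate 1, with a 95% Wilson interval of 96.3 to 98.0, and 81.9% in replicate 2, with one of 80.6 to 83.1, although 14 of the 22 genes belong to the heavy-strand transcript. Light-strand tRNAs had from 8 to 629 counts with a median of 62 in replicate 1, and from 25 to 652 with a median of 357 in replicate 2. Heavy-strand tRNAs had from 0 to 10 with a median of 2, and from 0 to 108 with a median of 47.5. In replicate 1 only mt-Tq and mt-Ta of the light strand, at 8 counts each, came down into the range of the heavy-strand tRNAs. Like mt-Nd6, the light-strand tRNAs lie opposite the heavy-strand transcript, and reads of the 2 strands cannot be told apart for them.

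The 2 highest light-strand tRNAs and mt-Tr, the highest heavy-strand tRNA in replicate 2 but not in replicate 1, are shown as whole genes. They are given 5′ to 3′ from the GENCODE M21 transcripts (mm10), to show their short length. No base is capitalised.
mt-Tp, tRNA for proline, light strand, chrM:15356-15422, minus strand: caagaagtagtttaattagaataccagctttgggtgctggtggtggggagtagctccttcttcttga
mt-Ts1, tRNA for serine, light strand, chrM:6870-6938, minus strand: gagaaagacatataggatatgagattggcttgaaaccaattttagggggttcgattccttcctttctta
mt-Tr, tRNA for arginine, heavy strand, chrM:9808-9875, plus strand: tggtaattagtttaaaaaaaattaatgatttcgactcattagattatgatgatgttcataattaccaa
mt-Tp, the first tRNA gene that the light-strand transcript reaches, had 629 counts in replicate 1 and 643 in replicate 2. mt-Ts1, whose gene overlaps the end of mt-Co1 by 3 bases on the opposite strand, had 445 and 652. These were the highest 2 tRNAs in both libraries. The cluster of light-strand genes between mt-Nd2 and mt-Co1 included mt-Tc with 87 and 490 counts, mt-Tn with 24 and 385 and mt-Ty with 37 and 229. mt-Te, next to mt-Nd6, had 99 and 329.

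Heavy-strand tRNAs came up mainly in replicate 2. mt-Tr had 2 and 108 counts, mt-Th 4 and 107, mt-Ts2 3 and 66, and mt-Tl2 1 and 66. mt-Tf, the first gene of the heavy-strand transcript, had 10 and 9, and mt-Tv, between the rRNAs, had 0 in both; these 2 were picked out after their values were seen. With the second tool 17 tRNAs averaged at least 10 counts over the 2 libraries. Several passed this filter through replicate 2 alone, such as mt-Tl2 at 1 and 66, while mt-Tf at 10 and 9 was left out. The counts and the median that follow are thus partly set by the filter. By the exact binomial test 16 of the 17 tRNAs were higher in replicate 2, where 32.1% of all genes with that tool were. More than 2-fold higher were 15, where 13.7% of all genes were. Their median log2 ratio was 3.10, against 0.06 over all genes. The second tool gave mt-Rnr2, of 1582 bases, an effective length of 1327 in replicate 1 and 1399 in replicate 2. For a gene of that length, effective length is longer where fragments are shorter. The effective lengths of the tRNAs went the other way, such as 20.8 and 17.6 bases for mt-Th. The part of fragment length in the ratios of these short genes was not tested. mt-Tp was not called, with a log2 ratio of -0.14 (adjusted p = 0.125, exact binomial test), and mt-Ts1 was called with 0.38 (adjusted p = 4.45e-05, exact binomial test). Whether these reads came from tRNAs or from longer precursors was not tested.

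**Figure D4:**
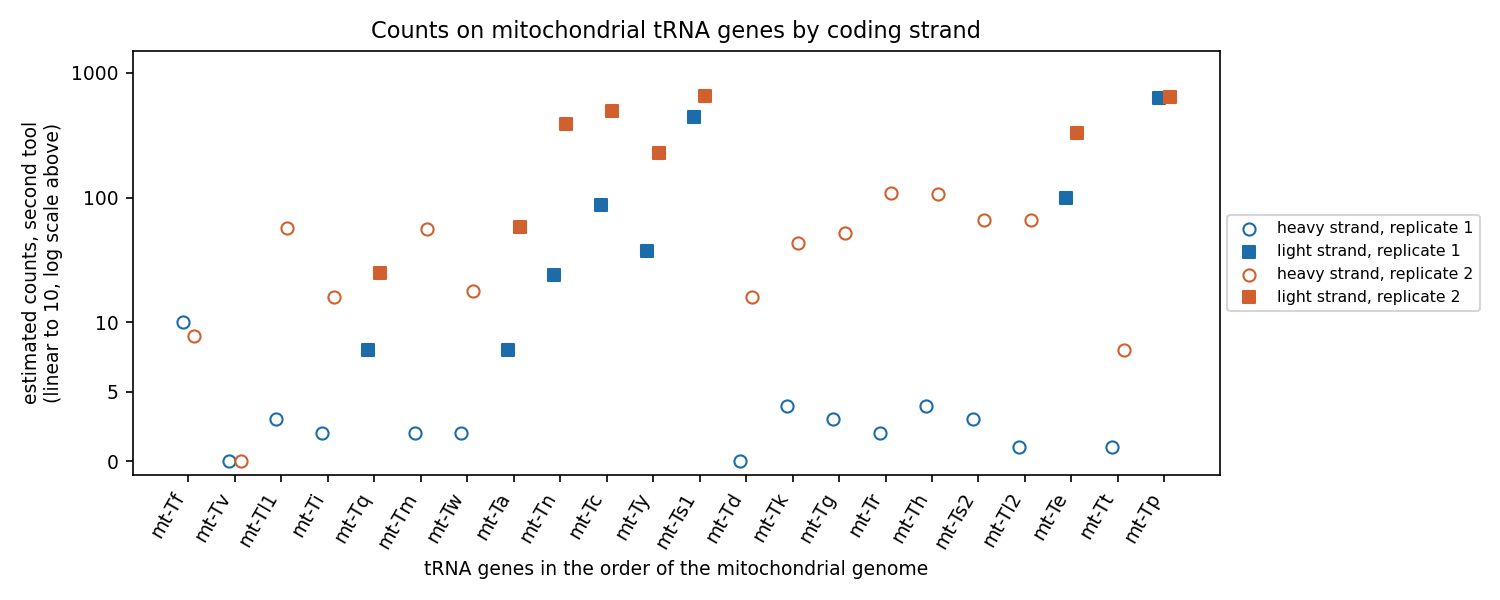
Estimated counts of the second tool on each mitochondrial tRNA gene in genome order (linear to 10, log scale above; filled squares, light-strand genes; open circles, heavy-strand genes; blue, replicate 1; orange, replicate 2). In replicate 1 heavy-strand tRNAs lie at 10 counts or below and light-strand tRNAs reach 629 (mt-Tp).

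Nuclear genes that serve mitochondrial DNA or its RNA, and nuclear partners of its proteins, are set beside the 29.7% of all genes called higher in replicate 2 and the 30.2% called lower. Of 16 genes for mitochondrial transcription and DNA maintenance, 3 were higher in replicate 2 and none was lower, with a median log2 ratio of 0.17. The 3 were Mterf4 (0.61), Mterf3 (0.59) and Ssbp1 (0.54), which encode 2 proteins of the mitochondrial termination factor family and the single-strand DNA-binding protein of the replisome. Polrmt, the mitochondrial RNA polymerase, had 1.96 and 4.73 TPM with a log2 ratio of counts of -0.23 (adjusted p = 0.313, exact binomial test). Tfam, which packages mitochondrial DNA and starts its transcription, had 1.12 and 1.5 TPM with 0.03 (adjusted p = 0.929, exact binomial test). Polg, the mitochondrial DNA polymerase, was among the highest of the list at 11.9 and 17.4 TPM, with a log2 ratio of -0.01. The mitochondrial mRNAs other than mt-Co3 and mt-Nd4l as deposited, and all 13 with the copies added, had larger log2 ratios than Mterf4, the largest of this list.

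Of 24 genes for mitochondrial RNA processing and turnover, 23 had enough counts, of which 9 were higher in replicate 2 and 2 lower (median log2 ratio 0.20), beside the 29.7% and 30.2% of all genes. Scaled by total counts, 12 were higher and 0 lower. That scaling called 9001 of all 14698 genes, 64.0% of them higher. Fastkd2, which binds the 16S rRNA, was higher by 0.86, and 1110008L16Rik by 0.79. Hsd17b10, a subunit of the RNase P that cuts mitochondrial tRNAs at their 5′ end, was lower by a log2 ratio of -0.73, and Ptcd1 by -0.39, both calls that scaling by total counts ended. The 3 highest of the list by TPM were Rexo2, an oligoribonuclease, with 10.2 and 17.5, Fastk with 8.57 and 13.8, and Pnpt1, the mitochondrial polynucleotide phosphorylase, with 7.67 and 10.6. Their log2 ratios of counts were 0.31, 0.03 and -0.0036, of which the first passed the test (adjusted p = 0.00861, exact binomial test).

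In TMM-scaled counts most nuclear partners of the mitochondrial proteins were lower in replicate 2. Of 37 nuclear genes for subunits of the same complexes, 23 were lower in replicate 2, where 30.2% of all genes were, and 2 were higher, where 29.7% were, with a median log2 ratio of -0.38. Scaled by total counts, 13 were lower and 3 higher, where 64.0% of the 9001 calls over all 14698 genes were higher. Cox4i1, a nuclear subunit of cytochrome c oxidase, had 44.3 and 34.4 TPM and a log2 ratio of counts of -0.92, where mt-Co1 had 0.89. Atp5b, the catalytic subunit of ATP synthase, was the highest at 61.3 and 95.1 TPM with a ratio of -0.21, and Cox7c had 33.5 and 54.5 TPM with 0.13 (adjusted p = 0.261, exact binomial test). Ndufs7 of complex I (-1.06) and Atp5d of ATP synthase (-1.02) were lower by most, and the 2 higher ones were Uqcrb (0.43) and Atp5l (0.16). In deposited TPM the 37 genes went the other way as a group, with a median of 11.85 in replicate 1 and 14.4 in replicate 2. Their TPM summed to 583 and 697. Atp5b was among those higher in TPM and lower in TMM-scaled counts. The median log2 ratio of all genes was 0.43 in TPM, and the cause of this difference between the scales was not tested.

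RNAs of other compartments also differed between the libraries, in both directions. In TMM-scaled counts all 8 abundant cytoplasmic mRNAs examined were lower in replicate 2 (median log2 ratio -0.55). So were all 8 macrophage markers (median -0.72), beside the 30.2% of all genes called lower. Of 5 RNAs held in nuclei, 3 were higher and 2 lower, namely Malat1 with a log2 ratio of 0.12, Xist with 1.18 and Kcnq1ot1 with 1.5, and Neat1 with -0.68 and Rn7sk with -0.90. Xist and Kcnq1ot1 were thus within the range of the mitochondrial mRNAs. On the TMM scale the mitochondrial mRNAs were therefore higher in the library in which the cytoplasmic mRNAs examined were lower. In deposited TPM those 8 cytoplasmic mRNAs had a median of 561 in replicate 1 and 486 in replicate 2, but summed to 5304 and 5405. Singly, Actb, B2m, Eef1a1, Tpt1, Rplp0 and Gapdh were higher in TPM in replicate 2, and only Fth1 and Ftl1 were lower. For most of them the direction thus depended on the scale. The part of fractionation, RNA input or cell state in these differences was not tested. In these bulk samples more organelles in the fraction and more RNA per organelle cannot be told apart.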

How the data were processed

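The 2 ribosome-depleted RNA libraries of the nuclear fraction were analysed as 1 group, with no comparison of conditions. The authors' gene tables held, per the file headers, expected counts, which can be fractional, and TPM, in columns named in RSEM's way. The deposited second transcript tables held estimated counts and TPM, summed here per gene. The reference was mm10 with GENCODE M21, per the labels and file headers. The aligner, tool versions and use of strand are not given in the sources used here. Members, the copies and the gene lists were chosen with earlier results of these data known.

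Expected counts were rounded for tests. Library sizes were scaled with TMM (edgeR 4.0.16, R 4.3.3) over genes averaging at least 10 counts, log2 ratios used a prior count of 0.5, and an adjusted p of 0.05 in the exact binomial test (scipy 1.17.1) made a call. A count total of 16940220 to 28450309 per library set the precision. DESeq2 1.42.0 size factors were an alternative, as were total counts, other filters, the second tool and added copies. Nuclear copies were annotated pseudogenes outside the mitochondrial genome that averaged at least 10 counts in the gene tables. At least 80% of their 31-base words lay in mitochondrial genes. Named were all mRNAs and rRNAs, up to 10 tRNAs with 10 or more counts, up to 8 copies with a mean of 1000 counts or more, and, of each nuclear list, the 3 highest by TPM and up to 2 called genes per direction with the largest ratio. The binomial test was tested on simulated data.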

Additional observations from a re-analysis of the deposited data

How the results depend on the processing

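Counting error was small at this depth for mRNAs and rRNAs, and with 2 libraries no test beyond it was possible. No paired analysis was possible because there is 1 group. Leaving out a replicate gives no value between libraries; for levels it gives the single libraries already shown, such as a mitochondrial share of 4.15% to 10.3%.

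The order of heavy-strand mRNA levels along the genome (Spearman with start, 12 mRNAs, 0.01 in TPM) was -0.028 with the second tool, -0.017 with posterior mean TPM, -0.15 with copies added per base and -0.12 with both. mt-Nd6 against the median of the other mRNAs (log2, 0.63 in TPM) was -0.26 with copies added per base and -0.090 with the second tool and copies. The log2 spread over the mRNAs, 7.33 in TPM, was 3.93 with the second tool, 5.26 with posterior mean TPM, 4.47 with copies added per base and 4.50 with both. The tools' median absolute log2 difference over the mRNAs, 1.07 in TPM, was 0.35 in CPM and 0.31 with copies added. The tRNA share of mitochondrial counts was 0.110% with the second tool.

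With the second tool, 30 of 32 mitochondrial genes tested differed between the libraries (29 higher, 1 lower), with or without copies. Without copies, that tool called 32.1% of all 23709 genes higher and 30.9% lower. The gene tables had 15 of 15 mitochondrial genes called, where 29.7% of all 14698 genes were called higher and 30.2% lower. A call between the libraries was thus common among all genes. The second tool tests 17 tRNAs in addition, several of which passed the filter on the mean count through replicate 2 alone. The mt-Co3 log2 ratio, -0.32 as deposited, was 0.40 with the second tool, 0.94 with copies added and 0.64 with both. The mt-Rnr1 call was lost with the second tool (adjusted p = 0.368, and 0.379 with copies, exact binomial test). Scaling by total counts moved the median of all genes by 0.17 and the higher share of all calls from 49.6% to 64.0%; it gave 6 called genes for mitochondrial transcription against 3, and 16 respiratory chain partners (13 lower, 3 higher) against 25. The causes of these changes were not tested. The alternatives with the second tool and copies together, and with copies in both tools, were chosen after seeing the data.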
